A study of Mus musculus with 8 samples.

Results

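The ependymal motile cilia genes are 10 genes, *Foxj1*, *Ccdc153*, *Tmem212*, *Rsph1*, *Dynlrb2*, *Rarres2*, *Mia*, *Ak7*, *Dnah5* and *Cfap126*, chosen by name as markers of ciliated ependymal cells and matched by Ensembl identifier. All 10 were found among the 55890 genes of the count table, and all 10 passed the filter on low counts, which left 18637 genes. RNA of the hypothalamus of female mice, 16 weeks old, was sequenced from 8 pools of 2 animals each. The POMC-C451Af/f group (4 pools) carried the POMC-Cre transgene and the floxed C451Af/f allele of *Esr1*, whose recombination takes away membrane-initiated signalling of estrogen receptor alpha in POMC neurons. The control group (4 pools) is described in the methods as C451Af/f littermates and in the sample labels as wildtype. Cre is driven in cells that express *Pomc*, and whole hypothalamus was measured. In these bulk samples fewer ciliated cells and less RNA per cell cannot be told apart. Each pool joins 2 animals, and the spread given is that between pools.

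Ependymal cells line the ventricles of the brain, and those of the third ventricle border the hypothalamus. Most carry a tuft of motile cilia that move cerebrospinal fluid, while the floor and lower walls of the third ventricle are lined by tanycytes, which have few or no motile cilia. A motile cilium is built on an axoneme, in which dynein motors slide microtubule doublets, and the radial spokes, the nexin-dynein regulatory complex and the central pair control the beat.

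The total estimated count lay between 36095253 and 48942116 per pool. The mutated gene, *Esr1*, was counted at 12.3, 12.8, 11.6 and 16.0 CPM (counts scaled to the TMM-adjusted library size) in control replicates 1 to 4 and at 11.6, 12.2, 9.997 and 10.8 CPM in POMC-C451Af/f replicates 1 to 4. The log2 fold change was -0.23 ± 0.10 (SE), with an unadjusted p of 0.0462 and a Benjamini-Hochberg adjusted p of 0.878 (edgeR). It was -0.13 without control replicate 4, the highest pool, with an unadjusted p of 0.144 and a Benjamini-Hochberg adjusted p of 0.795 in edgeR. The groups overlapped, and gene counts do not separate a mutated from an intact transcript, so these values do not check the genotype.

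*Foxj1*, the transcription factor that switches on the motile cilia programme, was counted at 27.9, 22.0, 20.9 and 25.8 CPM in control replicates 1 to 4. In POMC-C451Af/f replicates 1 to 4 it was at 26.9, 25.4, 25.8 and 24.1 CPM. Control replicate 1 was the highest pool and control replicate 3 the lowest, and the POMC-C451Af/f pools lay inside the range of the controls. The log2 fold change of POMC-C451Af/f over control was 0.09 ± 0.08 (SE), and its Benjamini-Hochberg adjusted p over the 18637 genes, from the quasi-likelihood test of edgeR, was 0.895. It was 0.02 without control replicate 3 and 0.16 without control replicate 1.

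*Dnah5* encodes a heavy chain of the outer dynein arm, the motor that drives the beat. It was at 6.82, 5.23, 6.26 and 7.02 CPM in control replicates 1 to 4 and at 6.37, 6.34, 7.36 and 5.09 CPM in POMC-C451Af/f replicates 1 to 4. POMC-C451Af/f replicates 3 and 4 were the highest and the lowest of all pools, so the groups overlapped fully. *Rsph1*, a protein of the radial spoke head, was at 10.7, 7.45, 7.81 and 9.48 CPM in control replicates 1 to 4 and at 9.09, 10.5, 8.96 and 7.59 CPM in POMC-C451Af/f replicates 1 to 4. Control replicate 1 was highest and control replicate 2 lowest.

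*Ccdc153*, a component of the nexin-dynein regulatory complex, was at 12.4, 8.96, 8.08 and 10.2 CPM in control replicates 1 to 4 and at 9.999, 10.5, 10.9 and 8.12 CPM in POMC-C451Af/f replicates 1 to 4. Its group means, 9.89 ± 1.85 and 9.87 ± 1.22 CPM (SD, n = 4), differed by less than the spread between pools. *Dynlrb2*, a dynein light chain of the roadblock family, had the lowest p of the 10 genes. It was at 4.32, 3.03, 3.23 and 3.26 CPM in control replicates 1 to 4 and at 3.18, 3.33, 2.61 and 2.61 CPM in POMC-C451Af/f replicates 1 to 4. The groups overlapped, and the log2 fold change of -0.23 ± 0.14 (SE) had a Benjamini-Hochberg adjusted p of 0.878 (edgeR). Without control replicate 1, its highest pool, the log2 fold change was -0.11. Its paralog *Dynlrb1*, which is not restricted to ciliated cells, had means of 100.4 and 99.8 CPM in control and POMC-C451Af/f pools.

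*Mia*, a small secreted protein, varied most between pools. It was at 2.85, 1.99, 2.15 and 2.54 CPM in control replicates 1 to 4 and at 2.54, 2.55, 2.70 and 1.20 CPM in POMC-C451Af/f replicates 1 to 4. POMC-C451Af/f replicate 4 was below every other pool, with 43 estimated counts, the fewest of any of the 10 genes. The other 4 genes were *Rarres2*, which encodes the secreted protein chemerin, *Ak7*, an adenylate kinase of the cilium, *Cfap126*, a protein bound to the axonemal microtubules, and *Tmem212*, a membrane protein. Their ranges over the 8 pools were 12.0 to 17.4 CPM, 8.96 to 12.5 CPM, 3.90 to 5.91 CPM and 2.89 to 4.52 CPM, and in each of them the groups overlapped.

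**Figure D1:**
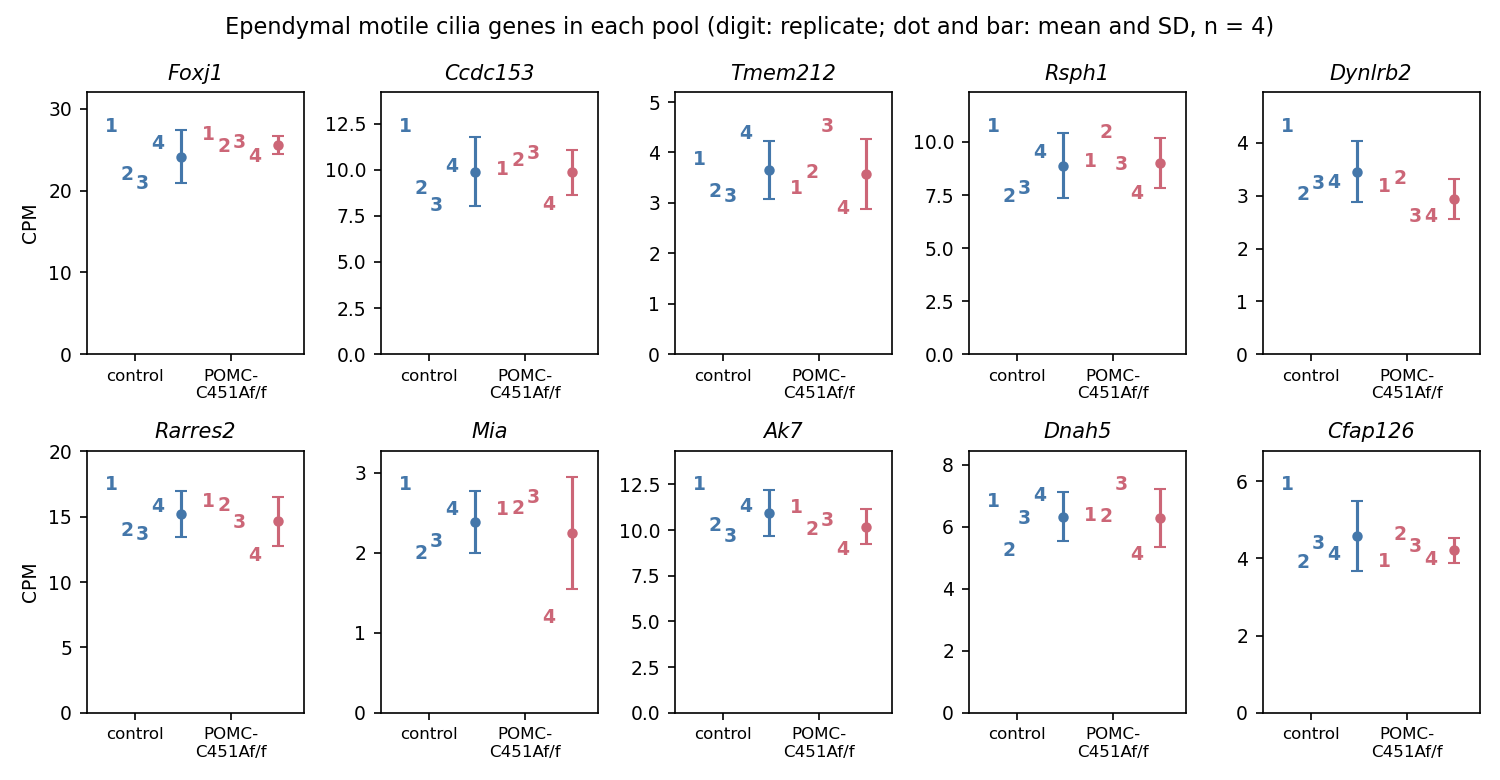
CPM (vertical axis, from 0) of each of the 10 genes in the 4 control and the 4 POMC-C451Af/f pools; each digit is the replicate number of a pool, and the dot with its bar is the mean with SD of the group. Control replicate 1 is the highest pool in 8 of the 10 genes, and POMC-C451Af/f replicate 4 is the lowest in 5.

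To compare genes roughly, CPM was divided by exonic length in kilobases, the length of all annotated exons of a gene joined. On this scale the mean over the 8 pools was 9.47 CPM per kb for *Foxj1*, above every pool of the next gene, *Rsph1*, at 6.52. *Dynlrb2* (5.75), *Rarres2* (5.62), *Tmem212* (5.05) and *Ccdc153* (4.85 CPM per kb) followed, each overlapping its neighbours in the order over pools. *Ak7* (2.51), *Cfap126* (2.47) and *Mia* (2.33 CPM per kb) formed a lower step whose ranges overlapped one another. *Dnah5* was lowest at 0.404 CPM per kb, below every pool of the other genes. This order depends on the length used, since joined exons can exceed the transcripts that were counted. For *Ccdc153* the joined exons had 2036 bases and the longest transcript 1087, so on its transcript length this gene would stand higher.

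Between the genotypes, 0 of the 10 genes were called by edgeR at an adjusted p of 0.05 and an absolute log2 fold change over 0.5, where 0.0215% of all tested genes were. None of the 10 had an unadjusted p under 0.05 in edgeR's test (5.1% of all tested genes did). DESeq2 called 0 of the 10 as well, with 0 at an unadjusted p under 0.05, beside 906 of all 32195 genes in that fit. Those 32195 include genes below the filter, which the 10 all passed. On the 18637 filtered genes, a run chosen after seeing the data, DESeq2 had 818 genes at that p, and 0 of the 10. The groups overlapped in all 10, where 2.78% of all tested genes had groups that did not. The log2 fold change was below 0 in 8 of the 10 genes and above 0 in *Foxj1* and *Rsph1*, with a median of -0.04 beside 0.00 over all tested genes. These signs depended on single pools, since 2 of the 10 were below 0 without control replicate 1 (median 0.02), 3 without POMC-C451Af/f replicate 4 (median 0.07) and 5 without control replicate 4. The 95% intervals of the log2 fold changes reached from -0.59 to 0.43, both bounds belonging to *Mia*. The narrowest, that of *Foxj1*, reached from -0.10 to 0.27. The p-values of the 10 genes do not show that the genotypes were alike. With 4 pools in each group, a difference within the interval of a gene was not excluded for that gene.

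**Figure D2:**
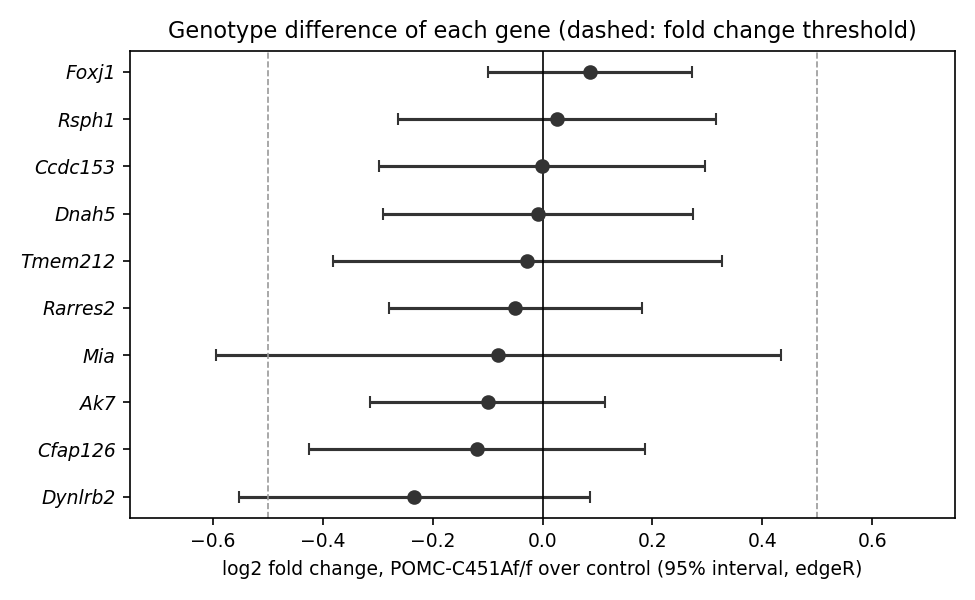
Log2 fold change of POMC-C451Af/f over control (horizontal axis) of each of the 10 genes with its 95% interval from edgeR, n = 4 pools in each group; dashed lines mark the threshold of 0.5. Every interval includes 0.

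The 10 genes went up and down together from pool to pool. Their mean (each gene as log2(CPM + 0.5), centred on its own mean over the pools) was 0.25, -0.14, -0.11 and 0.09 in control replicates 1 to 4 and 0.03, 0.07, 0.07 and -0.26 in POMC-C451Af/f replicates 1 to 4. The highest and the lowest pool, control replicate 1 and POMC-C451Af/f replicate 4, lay 0.51 apart on the log2 scale, a 1.43-fold difference. The group means of this value differed by -0.05, within an SD between pools of 0.18 in controls and 0.16 in POMC-C451Af/f pools.

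All 45 pairs of the 10 genes had a Pearson r above 0 over the 8 pools, with a median of 0.70 and a range from 0.15 to 0.90. Without control replicate 1 and POMC-C451Af/f replicate 4, the median over the 6 remaining pools was 0.50, and 37 of the 45 pairs were above 0. With the mean of the other 9 genes, r over the 8 pools was highest in *Rarres2* (r = 0.93, Spearman's rho = 0.76) and *Ccdc153* (r = 0.93, rho = 0.83) and lowest in *Dynlrb2* (r = 0.63, rho = 0.45). These correlations are descriptions, and the genes of a pool share its library. The median SD of a gene over the 8 pools was 0.19 for the 10 genes, beside 0.10 over all tested genes (log2 scale).

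Over the 83 tested genes of the axoneme, its assembly and its regulators outside the 10, the median r with the mean of the 10 genes was 0.51, beside -0.01 over all tested genes, and 43 of the 83 genes (51.8%) had an r over 0.5, beside 13.2% of the genes outside the 10. Without control replicate 1 and POMC-C451Af/f replicate 4, the median was 0.13, beside -0.01 over all tested genes, and 28.9% had an r over 0.5, beside 14.6%. Control replicate 1 was the highest pool in 38 of the 83 genes and POMC-C451Af/f replicate 4 the lowest in 30, beside 3009 and 2985 of all 18637 tested genes. The mean of these 83 genes followed the mean of the 10 with r = 0.96 and rho = 0.95 over 8 pools, and with r = 0.94 without control replicate 1 and POMC-C451Af/f replicate 4. This mean stood at 0.16 in control replicate 1 and at -0.14 in POMC-C451Af/f replicate 4 on the centred log2 scale.

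The outer dynein arm and its docking complex (r = 0.95, rho = 0.81 over 8 pools) and the nexin-dynein regulatory complex (r = 0.96, rho = 0.88) were closest to the mean of the 10 genes, each list taken without the genes it shares with the 10. The inner dynein arm (r = 0.89, rho = 0.79), the microtubule inner proteins (r = 0.88, rho = 0.76) and the radial spoke (r = 0.81, rho = 0.67) came next. Without control replicate 1 and POMC-C451Af/f replicate 4, r was 0.83 for the outer arm, 0.85 for the nexin-dynein regulatory complex, 0.81 for the inner arm, 0.47 for the microtubule inner proteins and 0.45 for the radial spoke. For the dynein arm assembly factors (r = 0.73, rho = 0.55) and the central pair apparatus (r = 0.72, rho = 0.38) the relation rested on the 2 extreme pools, since r was 0.06 and 0.19 without them. The mean of the regulators of the programme had r = 0.72 and rho = 0.71, and r = 0.86 without those pools. Single regulators followed less, with a median r of 0.37 over the 7 outside the 10. Of these 7, 2 had an r over 0.5 (28.6%, beside 13.2% of all genes), and without those pools 14.3% did, beside 14.6%. The mean of the regulators, here with *Foxj1* included, was lowest in control replicate 3 (-0.15), with POMC-C451Af/f replicate 4 at -0.01.

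Genes that motile and non-motile cilia both use varied less between pools. The 24 genes of intraflagellar transport, the cargo system that every cilium uses, had means between -0.03 and 0.02 in all pools, with r = 0.25 and rho = 0.14 to the mean of the 10 genes over 8 pools, and r = -0.08 without control replicate 1 and POMC-C451Af/f replicate 4. The 14 genes of the neuronal primary cilium had means between -0.02 and 0.02 (r = 0.37, rho = 0.50, and r = 0.19 without those pools).

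**Figure D3:**
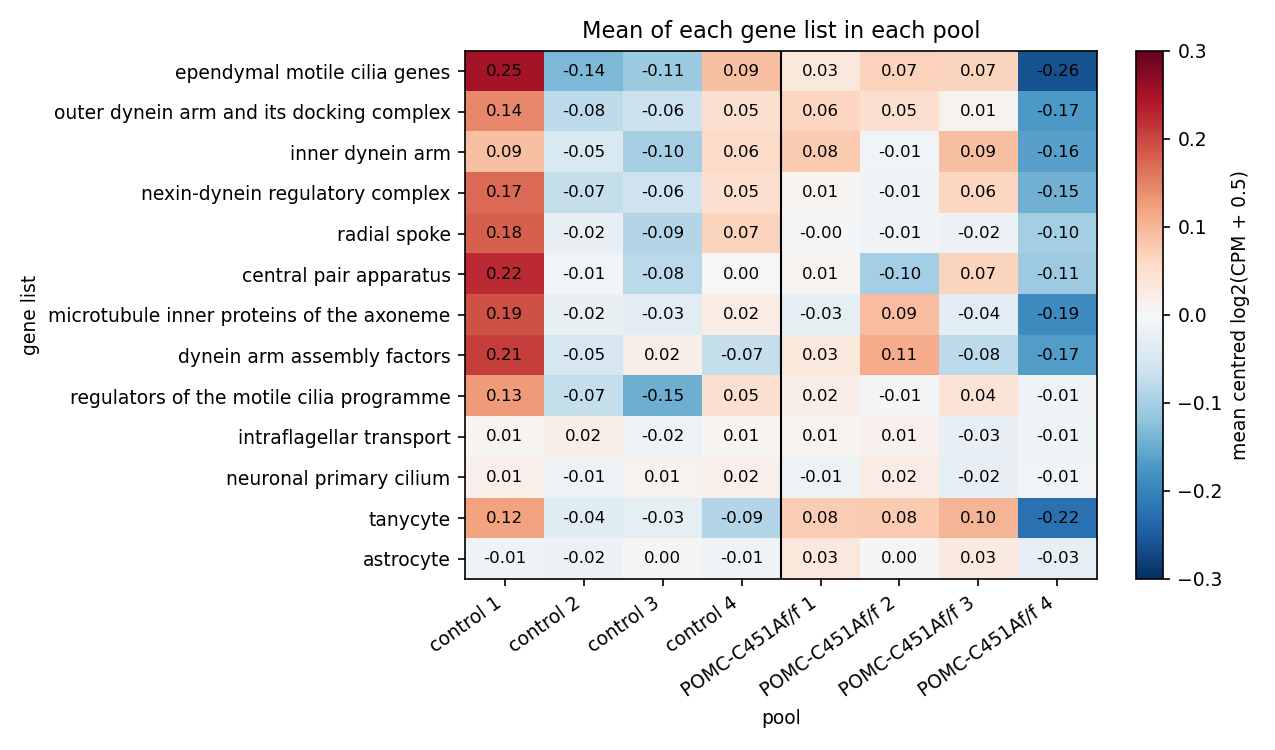
Mean centred log2(CPM + 0.5) of 13 gene lists (rows) in each of the 8 pools (columns, controls left of the line); red is above and blue below the mean over pools. Control replicate 1 is high and POMC-C451Af/f replicate 4 low in the lists of the axoneme, except that the regulators are lowest in control replicate 3, while intraflagellar transport and the neuronal primary cilium stay within 0.03 of 0.

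Between the genotypes, 5 of the 83 axoneme, assembly and regulator genes (6.02%, beside 5.1% of all tested genes) had an unadjusted p under 0.05 in edgeR's test, all 5 lower in POMC-C451Af/f pools, where 2.39% of all tested genes were lower by that measure and 2.7% higher. They were *Tekt2* (log2 fold change -0.31), *Rsph4a* (-0.22), *Dnah1* (-0.19), *Rsph9* (-0.15) and *Gas8* (-0.11), and each had a Benjamini-Hochberg adjusted p of 0.878 (edgeR), so none was called. DESeq2 called 0 genes of these lists as well, each taken with the genes it shares with the 10. Its unadjusted p was under 0.05 in 1 of 10 inner dynein arm, 2 of 10 radial spoke and 1 of 18 microtubule inner protein genes. The other axoneme, assembly and regulator lists had 0, beside 906 of all 32195 genes in that fit. DESeq2 on the 18637 filtered genes gave the same counts in these lists, beside 818 of all genes. The log2 fold change of *Rsph4a* was -0.11 without control replicate 1. *Tekt2*, a tektin inside the doublet microtubules, was the one gene of the 83 whose groups did not overlap, beside 2.78% of all tested genes. Its means were 5.54 and 4.47 CPM in control and POMC-C451Af/f pools, and its r with the mean of the 10 genes was -0.12. The median log2 fold change of the 83 genes was -0.05, beside 0.00 over all tested genes.

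By structure, each list again without the genes it shares with the 10, the median log2 fold change was -0.03 for the outer dynein arm, with extremes in *Odad4* (0.09) and *Dnai1* (-0.11), and 0.01 for the inner dynein arm, with extremes in *Dnah3* (0.15) and *Dnah1*. It was -0.04 for the nexin-dynein regulatory complex, between *Fbxl13* (-0.50) and *Iqca1* (0.16), and -0.06 for the radial spoke, between *Ropn1l* (-0.32) and *Rsph3a* (0.04). For the central pair it was -0.03, between *Cfap221* (-0.51) and *Cfap74* (0.05), and for the microtubule inner proteins -0.09, between *Tekt2* and *Spaca9* (0.14). *Cfap221* and *Fbxl13* were counted near 1 CPM, and neither had an unadjusted p under 0.05.

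The dynein arm assembly factors had a median log2 fold change of -0.05, between *Dnaaf1* (-0.23) and *Spag1* (0.02), and the 7 regulators outside the 10 one of -0.04, between *Deup1* (-0.16) and *Gmnc* (0.48). With *Foxj1* the median of the regulators was 0.02. *Gmnc*, an early regulator of multiciliated cells, had means of 0.37 and 0.51 CPM. In intraflagellar transport, *Ift81* (-0.13), *Ift27* (-0.11) and *Dync2h1* (-0.10) had an unadjusted p under 0.05 (12.5% of the list, beside 5.1% of all tested genes), the range reached from *Ift81* to *Dync2li1* (0.10), and the median was -0.01. In the neuronal primary cilium, *Bbs2* (-0.10) alone had an unadjusted p under 0.05, the range reached from *Arl13b* (-0.14) to *Sstr3* (0.12), and the median was -0.02. The groups did not overlap in *Ift81* and in *Inpp5e* of the primary cilium (log2 fold change -0.07), 1 gene in each list, beside 2.78% of all tested genes. The lowest Benjamini-Hochberg adjusted p in each of these 2 lists was 0.878 (edgeR), and DESeq2 called 0 genes. In DESeq2 1 of 24 and 1 of 14 genes had an unadjusted p under 0.05, beside 906 of all 32195 genes in that fit. On the 18637 filtered genes these 2 counts were the same, beside 818 of all genes.

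Of the 18627 genes outside the 10, 53 had an r over 0.9 with the mean of the 10 genes. The 10 highest were *Ccdc146* (r = 0.97), *Lrrc23* (0.97), *Cfap206* (0.96), *Atp7b* (0.95), *Rpl38* (0.95), *Antxr1* (0.95), *Bag2* (0.95), *Ang* (0.95), *AC169509.1* (0.95) and *Dnajb13* (0.94), each over 8 pools, and without control replicate 1 and POMC-C451Af/f replicate 4 their r lay between 0.80 and 0.96. Among them, *Lrrc23* and *Dnajb13* are radial spoke proteins and *Cfap206* is a protein of the axoneme. *AC169509.1* was near the floor, between 0.03 and 0.50 CPM over the pools. *Lrrc23* was at 12.98, 8.80, 9.22 and 11.2 CPM in control replicates 1 to 4 and at 10.8, 11.2, 9.997 and 8.23 CPM in POMC-C451Af/f replicates 1 to 4. They were picked as the highest of 18627 values, and nothing follows from the likeness about shared function.

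**Figure D4:**
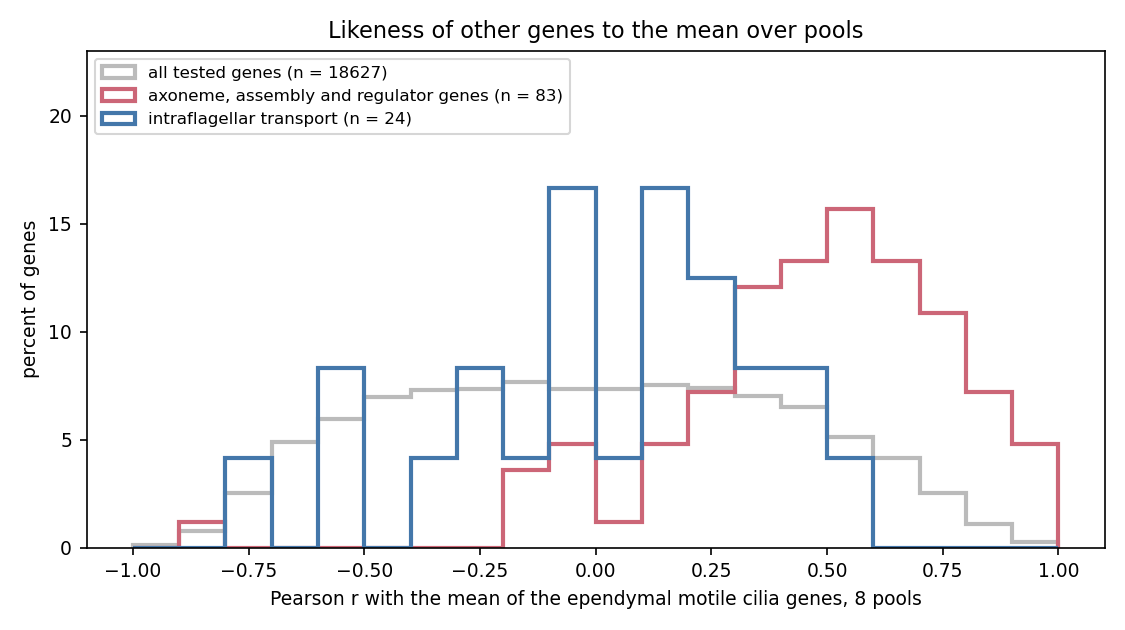
Percent of genes (vertical axis) by Pearson r with the mean of the 10 ependymal motile cilia genes over 8 pools (horizontal axis), for all tested genes, for the axoneme, assembly and regulator genes outside the 10 and for intraflagellar transport. The axoneme genes are shifted to the right, with a median r of 0.51 beside -0.01 for all tested genes; without control replicate 1 and POMC-C451Af/f replicate 4 these medians are 0.13 and -0.01.

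Other measures differed in the same pools. The 12 tanycyte markers, all tested, had a mean of 0.12 in control replicate 1 and -0.22 in POMC-C451Af/f replicate 4 on the centred log2 scale, and followed the mean of the 10 genes with r = 0.78 and rho = 0.62 over 8 pools, and r = 0.38 without those pools. Their summed level was 239, 209, 219 and 224 CPM in control replicates 1 to 4 and 235, 238, 242 and 214 CPM in POMC-C451Af/f replicates 1 to 4, with *Col25a1* the most abundant. Between the genotypes, 4 of the 12 (33.3%, beside 5.1% of all tested genes) had an unadjusted p under 0.05 in edgeR, *Col25a1* (log2 fold change 0.15), *Nes* (0.25) and *Tgfb2* (0.14) higher and *Gpr50* (-0.26) lower in POMC-C451Af/f pools, and 0 were called. The groups did not overlap in *Col25a1* and *Nes*, 2 of the 12, beside 2.78% of all tested genes. The mean of 76 ribosomal protein genes, chosen after seeing the data, was 0.10 in control replicate 1 and -0.09 in POMC-C451Af/f replicate 4. Its r to the mean of the 10 genes over 8 pools was 0.77, and this relation rested on those 2 pools. Among the other pools it was lowest, at -0.05, in POMC-C451Af/f replicate 3, where the mean of the 10 genes was 0.07. The part of these measures in the pattern of the cilia genes was not tested.

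The hypothalamic neuron markers (13 of 14 tested) summed to 1655 CPM in control replicate 1 and to 847 and 1051 CPM in POMC-C451Af/f replicates 3 and 4, with *Pmch* the most abundant, and had r = 0.50 and rho = 0.43 to the mean of the 10 genes, and r = -0.25 without control replicate 1 and POMC-C451Af/f replicate 4. Of these 13 genes 3 (23.1%, beside 5.1% of all tested genes) had an unadjusted p under 0.05 in edgeR, *Pomc* (log2 fold change -0.59), *Trh* (-0.23) and *Tac2* (-0.20), all lower in POMC-C451Af/f pools, the groups did not overlap in *Trh* and *Tac2* (2 of 13, beside 2.78% of all tested genes), and 0 were called. *Pomc* was at 98.9, 49.7, 50.5 and 50.8 CPM in control replicates 1 to 4 and at 49.5, 50.2, 35.8 and 30.6 CPM in POMC-C451Af/f replicates 1 to 4. Without control replicate 1, the pool in which the pituitary gene *Prl* was highest, its log2 fold change was -0.28, with an unadjusted p of 0.0971 and a Benjamini-Hochberg adjusted p of 1 in edgeR. The pituitary markers (5 of 10 tested), led by *Prl*, summed to 1449.9 CPM in control replicate 1 and to between 17.9 and 225 CPM in the other pools (r = 0.36, rho = 0.05, and r = -0.05 without those pools). The leptomeningeal markers (10 of 10 tested), led by *Igf2*, summed to 240.02, 277 and 251 CPM in control replicates 1 and 3 and POMC-C451Af/f replicate 2 and to at most 133 CPM elsewhere (r = 0.23, rho = -0.05, and r = -0.40 without those pools). In the pituitary and leptomeningeal lists 0 genes had an unadjusted p under 0.05 and 0 were called by edgeR. The part of these cells in the pattern of the cilia genes was not tested.

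Markers of the choroid plexus, another ciliated epithelium of the ventricles, were low, with 10 of 12 tested and a sum between 38.9 and 47.7 CPM, of which *Clic6* was the most abundant gene. Their mean on the centred log2 scale varied more than this sum, from -0.29 in control replicate 4 to 0.20 in control replicate 1. The choroid plexus markers had r = 0.20 and rho = 0.14 to the mean of the 10 genes over 8 pools, and r = -0.07 without control replicate 1 and POMC-C451Af/f replicate 4. Of these markers 0 had an unadjusted p under 0.05 or were called by edgeR. The astrocyte markers (10 of 10 tested), led by *Slc1a2*, had means between -0.03 and 0.03 in all pools (r = 0.39, rho = 0.24, and r = 0.42 without those pools). Of these 10 genes 3 had an unadjusted p under 0.05 in edgeR (5.1% of all tested genes did) and groups that did not overlap (2.78% of all tested genes), *Aqp4* (log2 fold change 0.29) and *Slc1a2* (0.08) higher and *Aldh1l1* (-0.09) lower in POMC-C451Af/f pools, and 0 were called, the lowest Benjamini-Hochberg adjusted p (edgeR) being 0.198 in *Aqp4*. The log2 fold change of *Slc1a2* was 0.05 without control replicate 1. In DESeq2 *Aqp4*, a water channel of astrocytes, had a Benjamini-Hochberg adjusted p of 0.000198, and its log2 fold change of 0.29 was under the threshold of 0.5, so it was not called. The midbrain dopaminergic markers (8 of 8 tested), led by *Th*, were highest in POMC-C451Af/f replicate 3, at 1.05 on the centred log2 scale, with r = -0.11 and rho = -0.19, and r turned to 0.64 without control replicate 1 and POMC-C451Af/f replicate 4. All 8 were higher in POMC-C451Af/f pools at an unadjusted p under 0.05 in edgeR, as 2.7% of all tested genes were, with 0 called. Without POMC-C451Af/f replicate 3 the log2 fold change of *Ddc* moved from 0.27 to 0.14 and that of *Chrna6* from 1.05 to 0.67. DESeq2 called 0 genes of the cell type lists, and an unadjusted p under 0.05 was found in 8 of 8 midbrain dopaminergic, 5 of 10 astrocyte, 3 of 12 tanycyte, 2 of 13 hypothalamic neuron and 1 of 10 choroid plexus markers and in 0 pituitary and 0 leptomeningeal markers. In that DESeq2 fit 906 of all 32195 genes had an unadjusted p under 0.05. The lowest Benjamini-Hochberg adjusted p of the midbrain list in that DESeq2 fit was 0.27. DESeq2 on the 18637 filtered genes gave the same counts in the cell type lists, beside 818 of all genes. The reference genes *Actb* and *Gapdh* had log2 fold changes of -0.02 and 0.00. Over the 8 pools, r with the mean of the 10 genes was -0.27 for the total estimated count. For the mitochondrial share of counts, which lay between 6.58% and 7.51%, it was -0.21. Without control replicate 1 and POMC-C451Af/f replicate 4, the total count ran more strongly against that mean. Of those remaining pools, control replicates 2 and 3 had the highest totals, 43755502 and 48942116, and the lowest means, -0.14 and -0.11. The part of the total count in the pattern was not tested.

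The 10 genes lie on 10 different chromosomes in GENCODE M21 (GRCm38), and no 2 of them are neighbours. Their promoters were searched on both strands for GTTGCC, letters at the core of the X-box bound by RFX factors, and for TGTTTAC, a forkhead-type site. RefSeq promoters (GRCm38.p6, 250 bases before to 50 after the start) were found for 7 of the 10 genes, 9 promoters in all, and not for *Foxj1*, *Rsph1* and *Rarres2*. GTTGCC occurred in 2 of the 9 promoters, beside 12.5% of all 32851 promoters, and TGTTTAC in 1 of the 9, beside 3.65%. The 250 bases before the start of the 3 genes are shown with the match in capitals, *Dynlrb2* at chr8:116504765-116505014, *Ccdc153* at chr9:44240427-44240676 and *Ak7* at chr12:105705732-105705981, all on the plus strand.
Dynlrb2: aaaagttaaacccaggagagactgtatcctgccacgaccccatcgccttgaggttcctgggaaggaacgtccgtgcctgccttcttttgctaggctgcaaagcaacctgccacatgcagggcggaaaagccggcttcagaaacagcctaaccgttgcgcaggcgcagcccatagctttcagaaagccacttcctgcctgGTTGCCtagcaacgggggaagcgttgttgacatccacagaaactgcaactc
Ccdc153: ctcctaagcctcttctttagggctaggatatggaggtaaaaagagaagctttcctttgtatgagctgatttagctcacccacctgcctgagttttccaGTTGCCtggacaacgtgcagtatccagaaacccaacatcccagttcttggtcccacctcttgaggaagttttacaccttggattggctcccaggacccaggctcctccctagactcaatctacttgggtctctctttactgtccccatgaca
Ak7: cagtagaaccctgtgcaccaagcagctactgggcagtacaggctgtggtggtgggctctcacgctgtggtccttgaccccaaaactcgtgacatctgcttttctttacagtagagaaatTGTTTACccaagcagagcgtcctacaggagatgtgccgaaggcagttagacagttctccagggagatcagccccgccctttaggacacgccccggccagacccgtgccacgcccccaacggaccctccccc

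The match began 51 bases before the start in *Dynlrb2*, 152 in *Ccdc153* and 131 in *Ak7*. Among genes with a promoter, GTTGCC was found for 8 of 10 assembly factors, 10 of 15 microtubule inner proteins, 6 of 9 central pair genes, 6 of 9 genes of the nexin-dynein regulatory complex, 6 of 9 regulators, 4 of 9 inner arm genes, 2 of 7 radial spoke genes and 1 of 8 outer arm genes, beside 14.1% of all genes with a promoter. It was found for 10 of 20 genes of intraflagellar transport, 4 of 13 of the neuronal primary cilium, 3 of 8 choroid plexus, 2 of 7 midbrain dopaminergic, 2 of 8 astrocyte and 1 of 7 leptomeningeal markers, and 0 of 10 tanycyte, 0 of 7 pituitary and 0 of 12 hypothalamic neuron markers. The outer dynein arm, among the lists closest to the 10 genes over pools, had the lowest share of the axoneme lists. A match is a description of the letters and does not show binding.

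Some counts are less certain. *Mia* shares 43.1% of its longest transcript with the overlapping gene *Gm21983* on the same strand, and *Rarres2* shares 35.5% with *Lrrc61*, which overlaps it on the opposite strand and was counted at 27.4 and 25.9 CPM in control and POMC-C451Af/f pools. *Ccdc153* shares at most 12.2% with any other gene at 90% identity or more. Without *Mia* and *Rarres2*, the mean of the genes still differed by 0.45 between the highest and the lowest pool on the log2 scale.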

How the data were processed

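Poly(A) RNA of female mouse hypothalamus was sequenced in 8 pools of 2 animals. The authors quantified reads with Salmon 1.10 against GENCODE vM32 and summed transcripts to genes with tximport. The deposited values are estimated counts per gene, not normalized between pools. A deposited table of the authors' own comparison, with fold changes and p-values, was not used.

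Estimated counts were rounded to whole numbers, filtered with filterByExpr (minimum count 10, minimum total count 15), scaled by TMM and fitted in R 4.3.3 with edgeR 4.0.16 (legacy glmQLFit, then glmQLFTest) over all 8 pools, genotype being the sole covariate. P-values were adjusted by Benjamini-Hochberg over 18637 genes, and a call needed an FDR of 0.05 or less and a log2 fold change beyond 0.5 in either direction. The SE is the absolute log2 fold change over the square root of F. The procedure was tested on simulated data. Correlations used log2(CPM + 0.5) and are given without p. Names, exonic lengths and positions came from GENCODE M21 on GRCm38, which matched 51424 of 55890 identifiers, and were not converted to the authors' build. Shared sequence was searched with blastn 2.17.0 at 90% identity.

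The members and lists were chosen with earlier results of these data known. The text names the 10 genes, *Esr1*, *Dynlrb1*, *Actb* and *Gapdh*. In each list of the axoneme and cilium it names the tested genes with the highest and lowest log2 fold change and those with an unadjusted p under 0.05. In each cell type list it names the most abundant gene and any gene at or under 3 counts in every pool (there was none), and outside the 10 genes the 10 with the highest r to their mean. *Inpp5e*, the overlapping genes *Gm21983* and *Lrrc61* and the cell type markers with an unadjusted p under 0.05 were named after their values were seen. *Mcidas*, *Cdc20b*, *Rsph6a* and *Dnaaf6* did not pass the filter, and *Pierce2* was not matched. Alternatives were DESeq2 1.42.0 on the 32195 genes with a rounded count above 0 in some pool and, chosen after seeing the data, on the 18637 filtered genes, scaling by its size factors or by total counts, dropping the filter, requiring 10 or more counts in each pool, a block for the replicate number, leaving out single pools (also for *Esr1* and list genes with an unadjusted p under 0.05, an addition chosen after seeing the data), and for the mean of the 10 genes another pseudocount or its value without *Rarres2* and *Mia*.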

Additional observations from a re-analysis of the deposited data

Results flagged for a closer look

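In the POMC-C451Af/f group, replicate 4 stood apart from the other 3 pools in 4 measures, by a gap to the nearest pool, as a share of the group's range, above Dixon's 95% critical value for 4 samples. *Mia* was at 1.20 CPM there and between 2.54 and 2.70 CPM in the others, a gap of 0.898 of the range. The mean of the 10 ependymal motile cilia genes was at -0.26 there and between 0.03 and 0.07 in the others (0.885 of the range). The mean of the radial spoke genes, here with *Rsph1* of the 10 genes included, was at -0.10 there (0.865 of the range). Without *Rsph1* the gap of that list was below the critical value. The mean of the tanycyte markers was at -0.22 there and between 0.08 and 0.10 in the others (0.917 of the range). Of 64 groups of 4 pools examined, chance sets about 1 in 20 apart, or 3.2, and these measures share genes or move together.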

How the results depend on the processing

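The number of genes called between the genotypes was 4 in edgeR and moved to 12 with DESeq2 and its own filtering, to 2 with at least 10 counts in every pool and to 2 with the replicate number as a block. The DESeq2 run started from the 32195 genes with a rounded count above 0 in some pool, on which edgeR called 5, so tool and filter changed together. DESeq2 on the 18637 genes of the edgeR fit, an alternative chosen after seeing the data, called 13. The cause was not tested. Deviations of same-numbered pools had correlations of 0.141, -0.179, -0.109 and 0.243, of mixed sign. Whether same-numbered pools share more than a number was not tested. None of the 10 cilia genes was called in any alternative run: of 150 refitted log2 fold changes 0 had an adjusted p under 0.05, and the lowest adjusted p by Benjamini-Hochberg, over edgeR and DESeq2, was 0.572. In 7 of the 10 genes the sign changed in some alternative. *Ccdc153* was at 0.0064 with the replicate block. Leaving out single pools, its log2 fold change lay between -0.089 and 0.123, that of *Cfap126* between -0.191 and 0.025, of *Dnah5* between -0.0916 and 0.0799, of *Mia* between -0.177 and 0.126, of *Rarres2* between -0.101 and 0.0335, of *Rsph1* between -0.0534 and 0.131 of *Tmem212* between -0.160 and 0.0675 and, with no change of sign, of *Foxj1* between 0.0208 and 0.161, of *Dynlrb2* between -0.301 and -0.111 and of *Ak7* between -0.157 and -0.0303. The median of the 10 genes ranged from -0.10 to 0.07 with each pool left out, and was 0.02 without control replicate 1 and 0.07 without POMC-C451Af/f replicate 4. The range of their mean over pools was between 0.40 and 0.55 on the log2 scale under other scalings, another pseudocount or without *Rarres2* and *Mia*, and 0.35 without control replicate 1 and 0.39 without POMC-C451Af/f replicate 4. With 43 estimated counts at the least, counting error limits *Mia* more than the other 9 genes.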
